A study of Mus musculus with 6 samples.

Results

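Genes of cholesterol synthesis, sterol sensing, cellular cholesterol uptake and cholesterol efflux were compared between 2 sorted cell populations of the mouse lung. The list held 28 genes, taken by name, and each gene was read from its brightest probe set that carries 1 gene symbol. Of these, 26 are described, out of 18193 genes on the array, and Acat2 and Soat1 were not analysed here. The 26 genes comprised 17 synthesis enzymes, 3 genes of sterol sensing, 4 genes of uptake and intracellular trafficking, and 2 of efflux.

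One group was cells sorted from lungs at embryonic day 18 (E18) as positive for Muc1 and Pdpn, which the study calls bipotent progenitors of the alveolus. The other was cells from adult lungs positive for Lyz2 and EpCAM, which the study calls alveolar type II (ATII) cells. Each group had 3 samples described as biological replicates, with 1 Affymetrix 3' expression array each. Strain, genotype, sex, the age of the adults in weeks, whether animals were pooled and whether Lyz2 was read by antibody or by a reporter allele were not given in the sources used here.

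Cholesterol is built from acetyl-CoA through mevalonate, the isoprenoid units, squalene and a series of sterol intermediates. Cells keep its level steady through SREBP2, a membrane-bound transcription factor that Scap carries to the Golgi when sterols are low and that Insig proteins hold in the endoplasmic reticulum when sterols are high. Excess cholesterol activates the LXR receptors, whose targets include the exporters Abca1 and Abcg1. In the lung, cholesterol is the main neutral lipid of surfactant, which alveolar type II cells take up, make, store and secrete.

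The promoters of the synthesis enzymes are shown first because SREBP2 acts there together with factors that bind CCAAT and GC boxes. RefSeq windows of 300 bases, from 250 before to 50 after the start on the gene's strand (assembly GRCm38.p6), were at hand for 19 of the 26 genes. The classical sterol regulatory element, searched as TCACNCCAC on both strands, was found in 1 of the 19 genes, Hmgcs1, and in 1.40% of the 10729 tested genes that have a window. It lies 137 to 129 bases before the Hmgcs1 start. The CCAAT box, searched as CCAAT on both strands, was found in 17 of the 19 genes and in all 14 synthesis enzymes with a window, compared with 42.2% of the tested genes. The GC box GGGCGG was found in 18 of 19 genes, compared with 65.9% of tested genes. The E-box CACGTG was found in 6 of 19, compared with 11.3%. Matches of different motifs were counted separately, whether or not they overlapped, and a match describes letters in this window and not a bound site. The first window below shows the Hmgcs1 element. The next 4, picked after the counts were seen, show a CCAAT box in enzymes from successive stretches of the pathway. Each is the match closest to the start among those whose printed flanks lie wholly before it. The last shows the E-box of Abca1, the exporter with the lowest p on the list. Capitals mark the motif, and ATTGG is CCAAT read on the other strand.
Hmgcs1, chr13:119690184-119690252, plus strand: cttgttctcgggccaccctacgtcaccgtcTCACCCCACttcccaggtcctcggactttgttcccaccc
Mvd, chr8:122443425-122443469, minus strand: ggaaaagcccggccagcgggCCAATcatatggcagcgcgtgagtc
Idi1, chr13:8885541-8885585, plus strand: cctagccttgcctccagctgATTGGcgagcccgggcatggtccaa
Lss, chr10:76531523-76531567, plus strand: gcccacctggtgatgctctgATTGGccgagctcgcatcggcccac
Cyp51, chr5:4104702-4104746, minus strand: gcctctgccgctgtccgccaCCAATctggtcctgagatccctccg
Abca1, chr4:53160017-53160062, minus strand: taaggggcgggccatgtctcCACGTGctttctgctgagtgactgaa

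None of the 26 genes passed the test between adult and E18 cells. The gene closest to the threshold was the exporter Abca1 (adjusted p = 0.104), followed by the sterol carrier Stard4 (adjusted p = 0.129). Values are log2 of the MAS5 signal, differences are adult minus E18 on that scale, and a difference of 1 is a 2-fold change. Adjusted p-values are from limma's two-sided test with Benjamini-Hochberg adjustment over the 13335 genes tested, with a threshold of 0.05. In that fit 798 genes passed, or 5.98%, of which 4.57% of all genes tested were lower in adult cells and 1.41% were higher. At an unadjusted p under 0.05 there were 3 of the 26 (11.5%), namely Stard4, Abca1 and Abcg1, against 2883 of all genes tested (21.6%). All 26 genes had passed the filter on low signal.

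The list as a whole lay near the array as a whole. The median difference was -0.10 over the 26 genes, with 11 above 0 and 15 below, and -0.17 over all genes tested. The groups' arrays did not overlap for 6 of the 26: Mvd, Stard4, Abca1 and Abcg1 were lower on every adult array, and Pmvk and Npc2 were higher. Over all genes tested, 18.8% did not overlap with adult arrays lower and 10.1% with adult arrays higher. The estimates were not all tight. The 95% confidence interval of the difference stayed within 1 log2 unit on either side of 0, so inside a 2-fold change, for 4 genes: Idi1, Cyp51, Srebf2 and Scap. For the remaining genes it reached past a 2-fold change. It stayed within 2 units, a 4-fold change, for 25 of 26, Fdps being the exception. The plot of the genes by array shows how the adult arrays spread more widely than the E18 arrays for most of them. The median SD over the list was 0.292 among E18 arrays and 0.615 among adult arrays, close to the 0.292 and 0.619 over all genes tested.

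**Figure D1:**
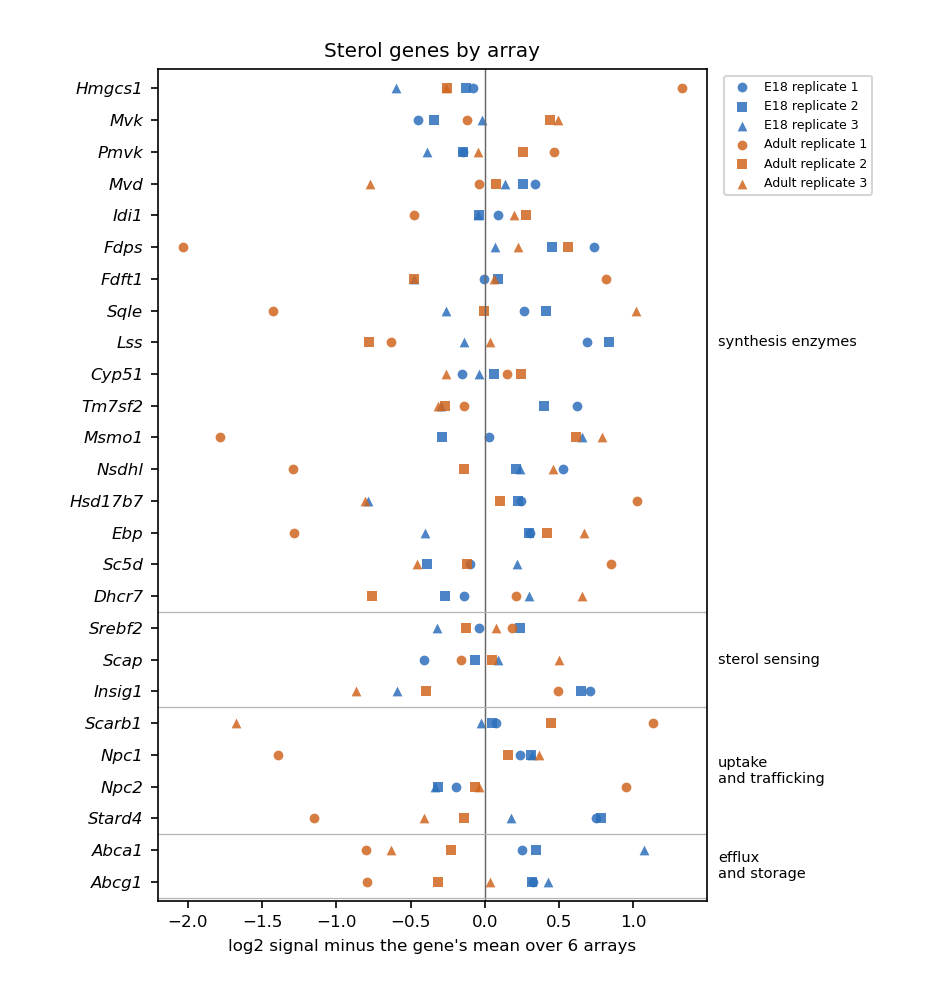
Each row is 1 of the 26 genes, and each point is 1 array's log2 signal minus that gene's mean over the 6 arrays, with E18 arrays in blue, adult arrays in orange and the replicate number by shape. Points of adult replicate 1 lie farthest out in many rows, and the rows of Stard4, Abca1 and Abcg1 have all adult points to the left of all E18 points.

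Scaling shifted these signs, since centring arrays on their medians moved the median of all genes from -0.17 to -0.02 and quantile normalization moved it to -0.05. Relative to the median of all genes, the synthesis enzymes lay 0.17 higher as deposited, 0.17 higher after centring and 0.09 higher after quantile normalization. The 6 uptake, trafficking and efflux genes lay at -0.47, -0.47 and -0.61 relative to it under the same 3 scalings. After centring, 14 of the 26 genes had differences above 0, and none had an unadjusted p under 0.05. After quantile normalization 11 had differences above 0 and 3 had an unadjusted p under 0.05, the same counts as with the deposited scaling.

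The first enzymes of the pathway, which make mevalonate and turn it into the isoprenoid building block, gave small differences of both signs. Hmgcs1, which joins acetyl-CoA units into HMG-CoA, read 13.13, 13.08 and 12.61 on E18 replicates 1, 2 and 3, and 14.54, 12.95 and 12.95 on adult replicates 1, 2 and 3. Adult replicate 1 stood above the other 5 arrays, which lay close together, and the groups overlapped. The difference was 0.54 (SE 0.46, adjusted p = 0.552), and it was 0.01 without adult replicate 1. Mvk, which adds the first phosphate to mevalonate, had a mean of 7.25 ± 0.23 (SD, n = 3) in E18 and 7.79 ± 0.34 in adult cells, a difference of 0.54 (adjusted p = 0.445).

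Pmvk, which adds the next phosphate, read 9.79, 9.78 and 9.54 in E18 cells and 10.40, 10.19 and 9.88 in adult cells. Every adult array lay above every E18 array, by a difference of 0.45 that did not pass (adjusted p = 0.413). Mvd, which decarboxylates the product to isopentenyl diphosphate, went the other way with 9.39, 9.31 and 9.19 against 9.01, 9.13 and 8.28. Its difference was -0.49 (adjusted p = 0.455), the only negative value among these first 4 enzymes. Pmvk and Mvd are shown because their arrays did not overlap, a choice made after their values were seen.

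The isoprenoid enzymes included the gene with the smallest difference on the list. Idi1, the isomerase that makes the reactive isoprene unit, read 11.26, 11.13 and 11.13 in E18 cells and 10.69, 11.45 and 11.37 in adult cells. Its means were 11.17 in both groups, and the difference of -0.00 (SE 0.30, adjusted p = 0.999) had a 95% interval from -0.71 to 0.70. Fdps, which condenses these units into farnesyl diphosphate, read 8.36, 8.08 and 7.69 against 5.59, 8.18 and 7.85. Adult replicate 1 was below the detection floor of its array and the other adult arrays lay among the E18 arrays. The difference of -0.83 (adjusted p = 0.534) became -0.03 without adult replicate 1.

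Of the enzymes that make and fold squalene, Lss had the lowest p among all synthesis enzymes. Fdft1, squalene synthase, had a mean of 10.55 ± 0.30 (SD, n = 3) in E18 and 10.82 ± 0.65 in adult cells, a difference of 0.27 (adjusted p = 0.741). Sqle, the squalene epoxidase that is a rate-controlling step, read 10.41, 10.56 and 9.88 in E18 cells and 8.72, 10.13 and 11.16 in adult cells. The adult arrays of Sqle held both the lowest and the highest value, and the difference was -0.28 (adjusted p = 0.825), or 0.37 without adult replicate 1.

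Lss, which closes squalene epoxide into lanosterol, read 9.74, 9.89 and 8.91 against 8.42, 8.27 and 9.09. E18 replicate 3 and adult replicate 3 lay close to each other, while the other arrays separated. The difference was -0.92 (SE 0.40, unadjusted p = 0.0519, adjusted p = 0.236). In a fit of replicates 1 and 2 alone it was -1.47 with an adjusted p of 0.0181, and this was the only call of a listed gene in any of 18 alternative settings. In that fit 22.5% of all genes tested passed.

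The enzymes that convert lanosterol to cholesterol showed no shared direction. Cyp51, the lanosterol demethylase, was among the steadiest, with 10.10 ± 0.11 (SD, n = 3) in E18 and 10.18 ± 0.27 in adult cells (difference 0.09, adjusted p = 0.889). Tm7sf2, a sterol reductase, had 8.94 ± 0.48 and 8.46 ± 0.09, with a difference of -0.48 (adjusted p = 0.475). Msmo1, the sterol methyl oxidase, had 9.12 ± 0.48 and 8.86 ± 1.44, with a difference of -0.26 (adjusted p = 0.864).

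Nsdhl, the decarboxylase of the same demethylating complex, had 9.52 ± 0.17 and 8.87 ± 0.89 (difference -0.65, adjusted p = 0.473). Hsd17b7, the ketoreductase of that complex, had 9.23 ± 0.59 and 9.44 ± 0.91 (difference 0.21, adjusted p = 0.852). Ebp, the sterol isomerase, had 11.11 ± 0.41 and 10.98 ± 1.06 (difference -0.13, adjusted p = 0.913). The SD among adult arrays exceeded the difference in each of these 3. Without adult replicate 1 the differences were 0.57 for Msmo1, -0.17 for Nsdhl, -0.24 for Hsd17b7 and 0.48 for Ebp. The signs of Msmo1, Hsd17b7 and Ebp thus turned. The last enzymes had small differences with wide intervals. Sc5d, a desaturase, differed by 0.18 (95% interval -0.78 to 1.14, adjusted p = 0.836). Dhcr7, the reductase that yields cholesterol itself, differed by 0.07 (95% interval -0.93 to 1.08, adjusted p = 0.941). Without adult replicate 1 Sc5d differed by -0.20 and Dhcr7 by -0.01, so both signs turned. Over the 17 synthesis enzymes 8 differences were above 0 and 9 below, with a median of -0.00, a lowest of -0.92 and a highest of 0.54.

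**Figure D2:**
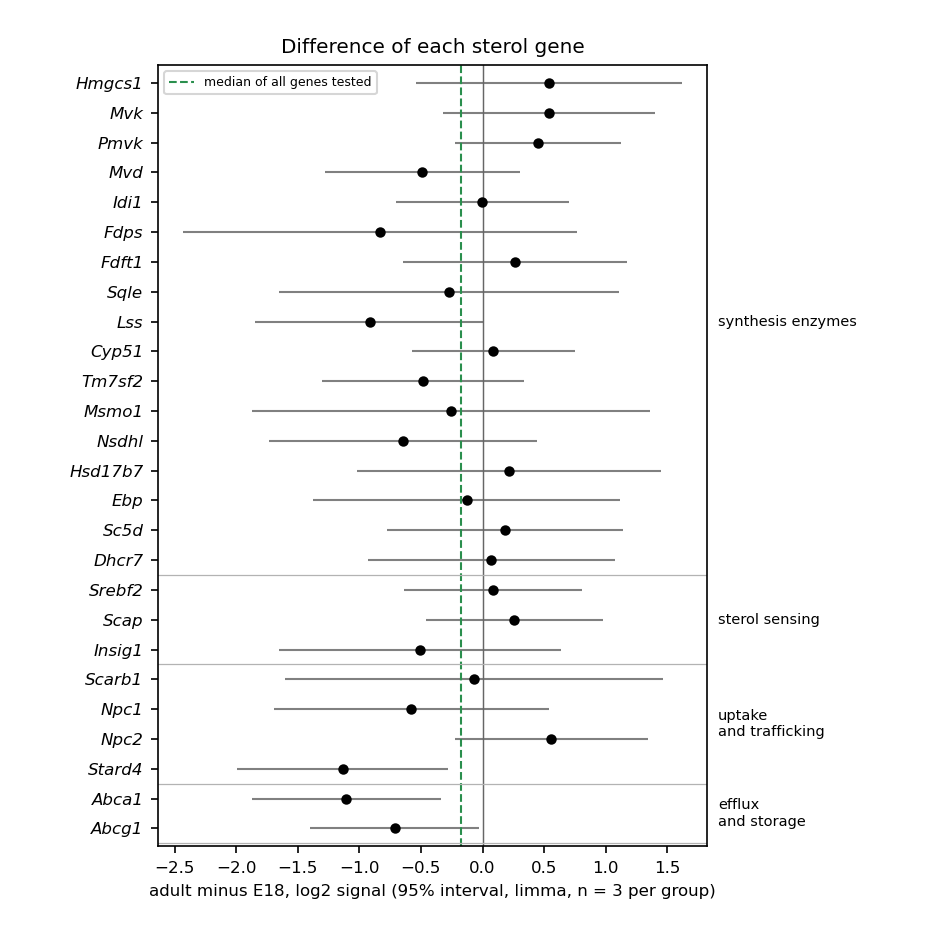
Points are the adult minus E18 difference in log2 signal of each of the 26 genes, grouped by role, and bars are 95% confidence intervals from limma, not adjusted for the number of genes, with a dashed line at the median of all genes tested (-0.17). The intervals of Stard4, Abca1 and Abcg1 lie below 0 and the other 23 cross it.

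The genes of sterol sensing did not differ beyond their spread. Srebf2, which encodes SREBP2, had a mean of 8.83 ± 0.28 (SD, n = 3) in E18 and 8.92 ± 0.16 in adult cells, and its difference of 0.09 had a 95% interval from -0.64 to 0.81 (adjusted p = 0.901). Scap, the escort of SREBP2, read 9.99, 10.33 and 10.48 in E18 cells and 10.23, 10.44 and 10.90 in adult cells. These values interleaved, with a difference of 0.26 (SE 0.31, adjusted p = 0.677).

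Insig1, which retains the complex in the endoplasmic reticulum and is itself a target of SREBP2, read 11.16, 11.10 and 9.86 against 10.94, 10.05 and 9.58. Replicate 3 was the lowest of both groups, the groups overlapped, and the difference was -0.51 (SE 0.49, adjusted p = 0.599). Leaving out 1 array gave values from -0.93 (without E18 replicate 3) to -0.21 (without adult replicate 3).

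Uptake and trafficking genes gave differences of both signs. Scarb1, the scavenger receptor that takes cholesterol from high-density lipoprotein, read 11.90, 11.88 and 11.81 in E18 cells and 12.96, 12.28 and 10.15 in adult cells. The E18 arrays lay close together while the adult arrays held both the highest and the lowest value. The difference was -0.07 (SE 0.66, adjusted p = 0.964) with an interval from -1.60 to 1.47, so this gene is poorly determined. Without adult replicate 3 it was 0.76, and without adult replicate 1 it was -0.65.

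Npc1 and Npc2, which hand cholesterol out of the late endosome and lysosome, had opposite signs. Npc2, the soluble carrier, read 14.05, 13.93 and 13.90 against 15.19, 14.17 and 14.20. All adult arrays were higher, mostly through adult replicate 1, and the difference of 0.56 (SE 0.34, adjusted p = 0.380) was 0.23 without that array and -0.08 after quantile normalization. Npc1, the membrane partner, had a mean of 10.25 ± 0.04 (SD, n = 3) in E18 and 9.67 ± 0.96 in adult cells, a difference of -0.58 (adjusted p = 0.536) that was -0.03 without adult replicate 1.

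Stard4, a soluble protein that moves sterol between membranes and is a target of SREBP2, had the largest difference on the list. It read 10.68, 10.71 and 10.11 in E18 cells and 8.79, 9.79 and 9.53 in adult cells. All adult arrays lay below all E18 arrays. The difference was -1.13 (SE 0.37, 95% interval -1.99 to -0.28, unadjusted p = 0.0162, adjusted p = 0.129), a 2.20-fold lower adult signal. It ranged from -1.41 to -0.81 over the 18 alternative settings, with adjusted p-values from 0.0648 to 0.445.

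Both exporters read lower in adult cells without passing the test. Abca1, which loads cholesterol and phospholipid onto apolipoproteins, read 11.69, 11.78 and 12.51 in E18 cells and 10.64, 11.21 and 10.81 in adult cells. The groups did not overlap, and E18 replicate 3 was the highest of all. The difference was -1.11 (SE 0.33, 95% interval -1.88 to -0.34, unadjusted p = 0.0110, adjusted p = 0.104). Over the alternatives it ranged from -1.27 to -0.44, the latter when the gene's probe sets were averaged, with adjusted p-values from 0.0812 to 0.683.

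Abcg1, which exports cholesterol to mature high-density lipoprotein and is needed for normal surfactant lipid balance, read 12.91, 12.91 and 13.02 against 11.80, 12.28 and 12.62. The E18 arrays were nearly equal and the adult arrays were spread below them. The difference was -0.71 (SE 0.29, 95% interval -1.40 to -0.03, unadjusted p = 0.0427, adjusted p = 0.213). Over the alternatives it ranged from -0.94 to -0.50, with adjusted p-values from 0.0598 to 0.544. In these bulk samples, fewer cells of a type and less RNA per cell cannot be told apart.

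Set side by side, the 6 uptake, trafficking and efflux genes had lower medians in adult cells, while those of the synthesis enzymes overlapped between the 2 groups. For each array the median departure from the genes' own means was taken over each set. In replicate order, the synthesis enzymes stood at 0.09, 0.09 and -0.05 in E18 cells, compared with -0.12, 0.08 and 0.06 in adult cells. The uptake, trafficking and efflux genes stood at 0.24, 0.32 and 0.25 in E18 cells, compared with -0.80, -0.10 and -0.23 in adult cells.

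Synthesis minus the other set was therefore -0.15, -0.23 and -0.30 in E18 cells and 0.68, 0.18 and 0.28 in adult cells. The adult values lay above all E18 values, with a mean gap of 0.61 that was 0.57 without adult replicate 1 and 0.33 when probe sets were averaged. This gap is a description with no test, since the genes were chosen with earlier results known, and 5 of the 6 genes in the smaller set had differences below 0, Npc2 being the exception. The 2 sets' median differences were -0.00 and -0.65. From replicates 1 and 2 alone these were -0.13 and -0.84, and from replicate 3 alone 0.22 and -0.49.

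**Figure D3:**
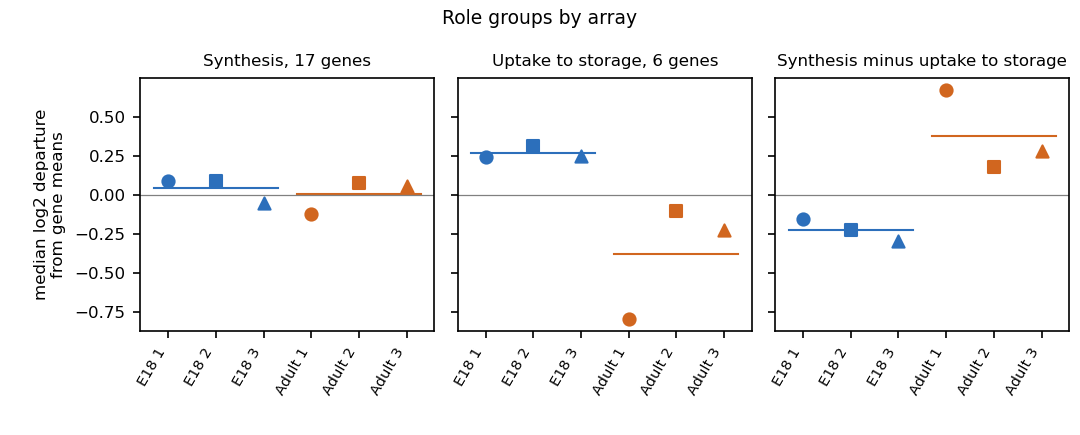
Each point is 1 array, and the height is the median, over the genes of a role, of log2 signal minus the gene's mean over 6 arrays. Horizontal lines are group means; the panels show the synthesis enzymes, the uptake, trafficking and efflux genes (titled uptake to storage), and synthesis minus the latter, where all 3 adult points lie above all 3 E18 points.

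Several genes have more than 1 probe set, and these often disagreed. Of the 15 genes with more than 1 tested probe set, 9 had differences of both signs: Hmgcs1, Idi1, Fdft1, Cyp51, Msmo1, Hsd17b7, Sc5d, Srebf2 and Npc2. None of the 50 tested probe sets of listed genes passed. For Hmgcs1 the brightest probe set gave 0.54 and the other tested ones -0.52, -0.81 and -0.70. The probe set at -0.81 read 11.49, 11.41 and 11.51 in E18 cells and 9.39, 10.64 and 11.94 in adult cells, so adult replicate 1, the highest array by the brightest probe set, was the lowest by this one.

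For Stard4 the brightest probe set gave -1.13 and another gave -1.21 (adjusted p over all probe sets 0.0989), while a further one gave -0.08. For Abcg1 both gave negative values, -0.71 and -0.82. For Abca1 the second tested probe set gave -0.05, with E18 values of 6.22, 5.65 and 8.26 and adult values of 7.57, 6.30 and 6.11. For Mvd the second probe set gave -1.30 (adjusted p = 0.113) beside the -0.49 of the brightest.

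Adult replicate 1 also stood apart in the array's control probe sets for the 3' and 5' ends of the beta-actin and Gapdh transcripts. The 3' minus 5' gap of beta-actin was 3.55 on the log2 scale there and 0.44 to 0.64 on the other 5 arrays. That of Gapdh was 4.62, with 2.23 to 2.63 on the others. The median gap between the highest and lowest probe set of a listed gene, each taken as a departure from its own mean, was 1.58 on adult replicate 1 and 0.33 to 0.73 on the other arrays. Over all 6038 genes with several probe sets it was 1.08 and 0.52 to 0.60. This array had the widest gap for 11 of the 15 genes. It was the highest or the lowest of the 6 arrays for 17 of the 26 genes (65.4%, against 50.3% of all genes tested). Without it no listed gene passed, and Stard4, Abca1 and Abcg1 gave -0.84, -0.98 and -0.50. The part of this array in the other differences was not tested beyond the values given.

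**Figure D4:**
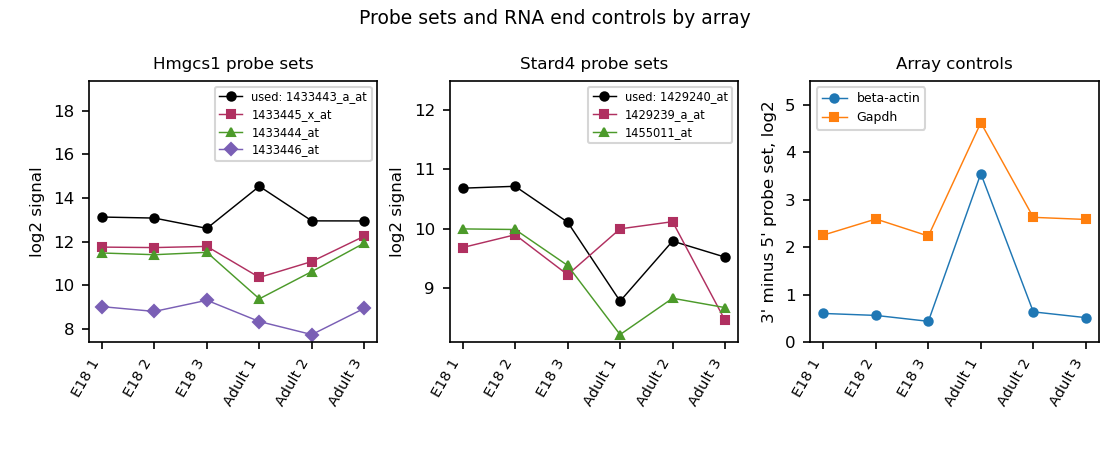
The first panels show log2 signal of the tested probe sets of Hmgcs1 and Stard4 on each array, and the last shows the 3' minus 5' difference in log2 signal of the beta-actin and Gapdh control probe sets. On adult replicate 1 the Hmgcs1 probe sets diverge and both controls peak, at 3.55 and 4.62.

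In the wider sterol pathway few genes passed as well. Of 65 other genes listed, 55 were on the array and 52 were tested, of which 2 passed, both lower in adult cells, and none passed higher (3.85% in all, against 5.98% of all genes tested). At an unadjusted p under 0.05 there were 8 of the 52 (15.4%, against 21.6% of all genes tested). None of 8 other synthesis genes and none of 12 other genes of SREBP and LXR regulation passed, and none of either set had an unadjusted p under 0.05. Of 17 other uptake and trafficking genes 1 passed and 3 had an unadjusted p under 0.05. Of 15 other efflux, ester and oxysterol genes 1 passed and 5 had an unadjusted p under 0.05. Median differences were -0.23 over the other synthesis genes and -0.31 over those of SREBP and LXR regulation. They were 0.06 over the other uptake and trafficking genes and -0.17 over the other efflux, ester and oxysterol genes. Here the synthesis median lay below the uptake and efflux medians, the reverse of the order among the listed genes.

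Vldlr, a lipoprotein receptor of the LDL receptor family, was the uptake gene that fell. It read 11.53, 11.67 and 10.77 in E18 cells and 8.26, 6.44 and 7.07 in adult cells, with no overlap between the groups. Its difference was -4.07 (SE 0.52, adjusted p = 0.00895), a 16.8-fold lower signal in adult cells. All 6 of its tested probe sets gave negative differences, from -5.37 to -1.16. In the fit over all probe sets, those at -4.43 and -1.16 did not pass (adjusted p = 0.0667 and 0.199). In the fits by gene, Vldlr had adjusted p-values from 0.00497 to 0.0583 over the alternatives. It did not pass without E18 replicate 1 (adjusted p = 0.0582), without E18 replicate 2 (adjusted p = 0.0583) or with these averaged (adjusted p = 0.0583).

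Lpcat3, an LXR target that remodels phospholipids with unsaturated acyl chains, was the other. It read 10.98, 11.001 and 10.80 against 9.30, 9.72 and 9.82. The groups were well separated, with a difference of -1.31 (SE 0.28, adjusted p = 0.0406), 2.48-fold. This call passed in 8 of the 18 alternatives. It was lost, for example, after median centring (adjusted p = 0.143) and without adult replicate 1 (adjusted p = 0.0608). The fits without each other array are given among the processing results. In the fit over all probe sets Lpcat3 did not pass (adjusted p = 0.0503).

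The brightest gene of each other list did not pass. Pgrmc1, a haem-binding partner of the sterol demethylase, differed by -0.43 (adjusted p = 0.676). Rnf145, a ubiquitin ligase of sterol-sensing proteins, differed by 0.04 (adjusted p = 0.957). Lamp2, a lysosomal membrane protein that takes part in cholesterol export from lysosomes, differed by -0.13 (adjusted p = 0.800), with an interval from -0.71 to 0.45. Apoe, an acceptor apolipoprotein, read 13.15, 12.93 and 13.18 in E18 cells and 12.56, 13.75 and 12.43 in adult cells, and differed by -0.17 (adjusted p = 0.834).

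Marker genes of the sorted populations are given beside these values. Across genes the arrays correlated at r = 0.921 to 0.983 within E18, 0.777 to 0.913 within adult and 0.761 to 0.841 between the groups. E18 replicates 1 and 2 resembled each other more than replicate 3. Their summed endothelial marker signals were 21967 and 22985, against 5941, and their type II sums 65254 and 65483, against 45178. With these 2 averaged, 63 of all genes tested passed rather than 798. Whether they are independent samples was not tested, and if not, the E18 SDs would understate the spread. Of the sort markers, Pdpn was lower in adult cells (-2.27, adjusted p = 0.00924), whereas Lyz2, which the adult cells were sorted for, was also lower there (-2.86, adjusted p = 0.00303). Muc1 (-2.07, adjusted p = 0.206) and Epcam (-1.41, adjusted p = 0.359) did not pass. Sftpc, the defining surfactant transcript of type II cells, read 14.05, 13.90 and 14.17 in E18 cells and 14.67, 14.50 and 14.52 in adult cells, but 7 of the 11 type II markers had negative differences, with a median of -0.22 and a lowest of -2.25 (Etv5).

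Of the marker lists, 0 of 11 type II and 0 of 11 macrophage genes passed, with 2 and 5 at an unadjusted p under 0.05, and neither of the 2 tested erythroid genes passed, both having an unadjusted p under 0.05. Those lower in adult cells were 6 of 10 type I genes, 4 of 10 endothelial and 8 of 10 mesenchymal genes. So were 1 of 8 airway and 8 of 11 cell division genes, and 4 of 11 lymphocyte genes were higher. An unadjusted p under 0.05 was found for 9 of 10 type I, 9 of 10 endothelial and 10 of 10 mesenchymal genes. It was also found for 4 of 8 airway, 10 of 11 cell division and 11 of 11 lymphocyte genes. The share over all genes tested was 21.6%. Summed linear signal of the macrophage genes, a cell type rich in Abca1, Abcg1 and Npc2, was 30442 to 53715 in E18 and 50579 to 83417 in adult cells. The sum weights the genes of high signal, and gene by gene 7 of the 11 macrophage differences were negative, with a median of -0.51. They ranged from -1.59 for Pparg to 2.51 for Chil3, with Marco at -1.50 and Mrc1 at -1.40. The 4 above 0 were Csf1r at 0.55, Siglecf at 1.44, Itgax at 2.18 and Chil3. The lymphocyte sum was 8709 to 16602 against 24538 to 89689, the mesenchymal sum 45924 to 63236 against 7832 to 16344 and the endothelial sum 5941 to 22985 against 2716 to 3185. The sums were 45178 to 65483 against 46760 to 92559 for type II genes, 65382 to 89660 against 15410 to 22872 for type I genes, 21775 to 28177 against 20323 to 99846 for airway genes and 15728 to 22539 against 4674 to 7069 for cell division genes. No deposited value was 0. The part of these other cell types in the sterol gene values was not tested.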

How the data were processed

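Total RNA from 6 sorted samples was amplified in 2 cycles, biotin labelled and hybridized, per the labels' protocols. The authors deposited 1 linear intensity per probe set and array. Per the submitters' processing notes, the tools were MAS5 and Affymetrix Expression Console. Each array's trimmed mean, leaving out 2% at each end, was 500.003 or 500.004. Values were log2 transformed here with no pseudocount.

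Of 45101 probe sets, 34945 carried 1 gene symbol, giving 18193 genes, each read from its probe set of highest mean on the log2 scale. Tested genes reached their array's 40th percentile, the detection floor, on at least 3 arrays (13335 genes). The floor is a rank, not a measured background, and the number of arrays limits precision. Signal ranked probe sets only to choose them, and differences in signal between probe sets were not read as differences in transcript level. The comparison used limma 3.58.1 under R 4.3.3 (lmFit, eBayes with an intensity trend, Benjamini-Hochberg), checked on simulated data, under 18 alternatives.

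The listed genes and all gene lists were chosen with earlier results of these data known. Values per array were given for genes past the threshold, genes whose groups did not overlap at a difference of at least 1, and the brightest 2 per role; of the other pathway lists, genes past the threshold and the brightest gene of each were named. Other genes named with values per array were chosen after their values were seen.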

Additional observations from a re-analysis of the deposited data

How the results depend on the processing

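No listed gene passed under 17 of 18 alternatives; in replicates 1 and 2 alone 1 synthesis enzyme, Lss, passed. No uptake, trafficking or efflux gene passed under any. Of the 26 genes, 11 kept their sign in all 18. The count of all genes past the threshold (798) was 492 with the replicate number as a replicate block, 2996 in replicates 1 and 2 alone, 63 with E18 replicates 1 and 2 averaged, and 66 (without E18 replicate 2) to 2770 (without adult replicate 3) when 1 array was left out. The synthesis median (-0.00) was 0.15 with arrays centred on their medians, -0.13 with probe sets averaged and -0.13 in replicates 1 and 2 alone, and -0.23 to 0.021 leaving out 1 array. Synthesis minus uptake, trafficking and efflux (0.61) was 0.33 with probe sets averaged and 0.56 to 0.77 leaving out 1 array. It kept the groups apart in the 11 alternatives that changed its value, and the other 7 left the value as it was. These alternatives reuse the same arrays, already apart in the main setting, so they are no independent check of the gap. Other pathway genes past the threshold (2) numbered 1 with no filter on low values, 1 with no intensity trend, 1 with the replicate block, 13 in replicates 1 and 2 alone, 0 with E18 replicates averaged and 0 to 12 leaving out 1 array. Lpcat3 did not pass without any 1 array other than adult replicate 3, with adjusted p-values of 0.224, 0.222 and 0.0776 without E18 replicates 1, 2 and 3 and 0.0608 and 0.102 without adult replicates 1 and 2. Probe sets of listed genes past the threshold (0) numbered 2 in replicates 1 and 2 alone (Lss and Stard4) and 0 to 2 leaving out 1 array, the 2 being of Hmgcs1 and Abcg1 without adult replicate 3. Same-numbered samples did not deviate together (correlations 0.04, -0.14 and -0.06, and 0 of 6 arrays correlated best with their own number), so the numbers were not taken to pair them; with the third replicates as a batch block 897 genes passed. The cause of these shifts was not tested.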
